A study of Mus musculus with 29 samples.

Results

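CpG methylation was followed at the 3 maternally methylated promoter regions of mouse chromosome 6 that control Peg10 and Sgce, Mest, and Nap1l5. In mouse embryonic stem cells (ESCs) grown in serum with LIF the main measured stretch of each region lay between 36.2% and 47.7% methylated reads at passage 20. In 2i/L medium all 3 fell to between 5.36% and 7.80%. After 2i/L cells had been returned to serum medium, 27.9% to 31.6% of reads over all autosomes were methylated, against 28.6% to 32.8% in serum cultures. The main stretches of the 3 regions lay between 6.31% and 17.2% after 3 passages and between 6.49% and 18.9% after 10. Over its whole window Mest averaged 26.0% after 10 passages and overlapped with serum cultures of passage 20. Against serum cultures of passage 20, Nap1l5 was called lower at both times by limma, a call that was lost when some single libraries were left out. In their main stretches Peg10/Sgce and Mest stood 20.3 to 22.7 points lower and were not called by limma. A quasi-binomial model called both lower after 3 passages and Mest after 10. The regions were chosen with earlier results of these libraries known, and their windows were set by position: chromosome 6 from 4695000 to 4701000 (Peg10/Sgce), from 30683000 to 30691000 (Mest) and from 58854000 to 58860000 (Nap1l5), build mm9. They held 97 of the 2828076 autosomal CpGs with a read in at least 1 library, of which 28 lay in the Peg10/Sgce window, 48 in the Mest window and 21 in the Nap1l5 window.

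An imprinted gene is read from the copy of 1 parent only, and the parental origin is marked by DNA methylation laid down in the egg or the sperm and kept through the divisions of the embryo. At the 3 regions described here the copy from the mother is methylated and silent and the copy from the father is unmethylated and read, so that a cell which keeps its imprint has an intermediate level. The maintenance methyltransferase Dnmt1 with its partner Uhrf1 copies the mark at replication, and the zinc finger protein ZFP57 binds the methylated hexamer TGCCGC and keeps imprints during the genome-wide demethylation of the early embryo. Peg10 is a gene derived from a retrotransposon and is needed for the placenta. Sgce encodes epsilon-sarcoglycan, a membrane protein, and is read in the opposite direction from the same promoter region as Peg10. Mest encodes a hydrolase-like protein of mesoderm and is involved in embryonic growth. Nap1l5 is an intronless gene of the nucleosome assembly protein family and lies within an intron of Herc3. The gene names follow the window definition, and no mm9 annotation was used, so single CpGs were not assigned to exons, introns or UTRs.

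The study used reduced representation bisulfite sequencing (RRBS), which reads CpGs in fragments cut at CCGG sites, in 29 libraries of 15 groups. The male ESCs of 3 lines (J-34, J-35, J-37) entered their medium at passage 4. They were collected after 6 passages (p10) in serum with LIF (S/L p10, 3 libraries), in 2i/L (2i/L p10, 3), in a2i/L (1, from J-34) and in PKCi/L (1, from J-35), and after 16 passages (p20) in S/L (3), 2i/L (3), a2i/L (2) and PKCi/L (2, both times from J-34 and J-35). Further cultures spent 16 passages in 2i/L and then 3 passages (p23, 3 libraries) or 10 passages (p30, 2 libraries) in S/L, and whether they were split from the sampled 2i/L p20 cultures was not stated. The 2i/L medium holds LIF with inhibitors of Mek1/2 and Gsk3, while what a2i/L and PKCi/L contain is not given in the labels. J-34 cells were also kept for 6 passages with PD or with CHIR alone (1 library each), usual short names for inhibitors of Mek1/2 and of Gsk3, respectively. The double knockout library (DKO) came from male induced pluripotent stem cells: Mek1 fl/fl; Mek2-/- embryonic fibroblasts were reprogrammed with lentiviral Oct4, Klf4, Sox2 and c-Myc, a clonal line was picked, and the floxed Mek1 alleles were removed with Cre. These cells were kept in S/L on irradiated fibroblast feeders, and whether feeder DNA entered the library is not given in the sources used here. Neonatal keratinocytes made up the last 2 groups, wild-type (1 library, female) and 2i/L (2 libraries, male), and the labels do not say how the second kind relates to cells in 2i/L.

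RefSeq promoter sequences (build GRCm38.p6, chromosome 6) were at hand for 2 of the 4 genes, Mest and Nap1l5. They are shown because the windows follow methylation around these promoters, and so that the ZFP57 hexamer can be looked for in them. Each line gives the 250 bases before the annotated start, 5′ to 3′ on the strand of the gene, and capitals mark TGCCGC or its reverse complement GCGGCA.
Mest, upstream start (chr6:30733256-30733505, plus strand): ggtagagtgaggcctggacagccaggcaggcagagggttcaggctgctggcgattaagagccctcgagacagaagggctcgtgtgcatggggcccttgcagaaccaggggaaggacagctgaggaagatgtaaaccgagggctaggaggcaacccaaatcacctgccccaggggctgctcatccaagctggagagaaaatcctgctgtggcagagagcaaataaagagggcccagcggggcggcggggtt
Mest, downstream start (chr6:30737800-30738049, plus strand): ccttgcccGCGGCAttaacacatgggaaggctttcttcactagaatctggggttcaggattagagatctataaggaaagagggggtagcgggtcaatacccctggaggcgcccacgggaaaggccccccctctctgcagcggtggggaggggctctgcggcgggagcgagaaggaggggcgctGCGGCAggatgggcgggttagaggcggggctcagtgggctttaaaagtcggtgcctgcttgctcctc
Nap1l5 (chr6:58907127-58907376, minus strand): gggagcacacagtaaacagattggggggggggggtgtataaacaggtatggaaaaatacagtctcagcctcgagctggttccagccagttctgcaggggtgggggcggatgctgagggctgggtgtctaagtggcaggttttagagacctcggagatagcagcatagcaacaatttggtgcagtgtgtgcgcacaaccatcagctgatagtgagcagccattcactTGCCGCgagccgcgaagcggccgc
The hexamer was found 2 times in the downstream Mest promoter, 1 time in that of Nap1l5 and not in the upstream Mest promoter, counting both strands of the printed bases. On either strand it was present in 8.68% of 32851 RefSeq promoters of the same length. The downstream Mest promoter held 14 CpGs, a number reached by 29.4% of promoters, and that of Nap1l5 held 10, reached by 37.8%. None of the printed promoters held the RRBS cutting site CCGG, which 47.1% of promoters had, and the spacing of the measured CpGs did not match that of the printed ones. The values below belong to CpGs of the surrounding windows, among which the printed CpGs were not identified.

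Reads were summed over 1 kb bins, and a bin was tested where every library had 10 or more reads. Of 13 bins with a read in the 3 windows 3 met this, 1 per window, and these are called the Peg10/Sgce, Mest and Nap1l5 bins below. The Peg10/Sgce bin runs from 4697001 to 4698000 with 18 CpGs in any library and 52 to 218 reads per library (median 101). The Mest bin runs from 30689001 to 30690000 with 7 CpGs and 21 to 155 reads (median 68), and the Nap1l5 bin from 58856001 to 58857000 with 19 CpGs and 54 to 318 reads (median 142). Neighbouring CpGs lie on the same fragment and share their reads, so the precision is closer to that of the best covered CpG, which had a median of 14, 19 and 22 reads in the 3 bins. At a level of 40% such numbers carry a binomial SD of 13.1, 11.2 and 10.4 percentage points in a single library.

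Libraries held between 8359802 and 22433006 reads over CpGs, and across autosomes 28.6% to 32.8% of reads were methylated in the S/L libraries. The 3 2i/L p20 libraries did not lie together: they had 15.3% in J-34, 12.3% in J-35 and 8.81% in J-37, and J-34 was also the highest of them in all 3 chromosome 6 bins. Coverage of CpGs differed between sets of libraries. Of the autosomal CpGs read in either library of a pair, a mean of 84.5% were read in both among p23, 2i/L p20 and S/L p20. Between this set and a2i/L p20, PKCi/L p20 and p30 the mean was 68.7%, and against S/L p10 and 2i/L p10 it was 75.4%. The part of this difference in results across the sets was not tested by itself. With only CpGs of 5 reads in all libraries, p30 differed from S/L p20 by -20.9 points at Peg10/Sgce, against -20.3 with all CpGs. At Mest the 2 values were -30.4 and -21.1 points, and Nap1l5 had no bin to test. A p30 library is titled J-35 but its cell type is given as J-34, and its line is called unclear here. RRBS measures no RNA, so labelled cell types were not checked against marker genes.

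**Figure D1:**
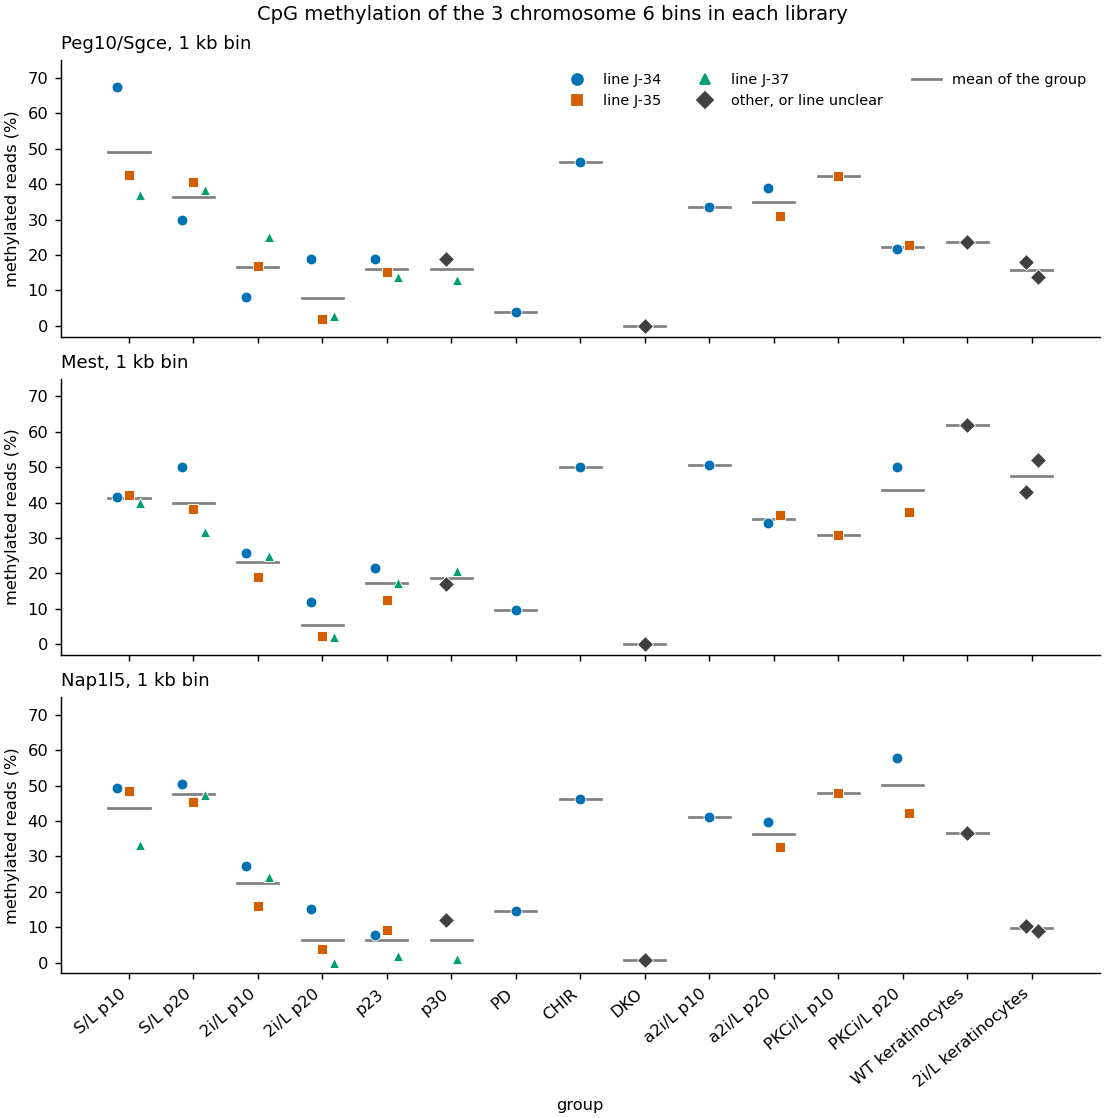
Percent of methylated reads in the 1 kb bin of each region (vertical axis) in each of the 29 libraries by group, with a grey line at the group mean and symbols for the ESC line. S/L, CHIR, a2i/L and PKCi/L libraries lie at 21.8% or higher, 2i/L p20, PD and DKO libraries at 18.8% or lower, and the p23 and p30 libraries lie below every S/L p20 library in all 3 panels.

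The first comparison asked what 2i/L did to the imprints within 6 passages. The Peg10/Sgce bin was at 67.3% in J-34, 42.5% in J-35 and 36.96% in J-37 in S/L p10, and at 8.13%, 16.9% and 25.0% in 2i/L p10. The Mest bin was at 41.7%, 42.1% and 40% in S/L p10 and at 25.8%, 19.1% and 25.0% in 2i/L p10, in the same order of lines. The Nap1l5 bin was at 49.5%, 48.5% and 33.3% in S/L p10 and at 27.3%, 16.0% and 24.2% in 2i/L p10. All 3 bins were thus lower in 2i/L in every line, and the groups did not overlap.

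Of the 3 bins 1 was called lower in 2i/L p10, Peg10/Sgce, where the mean went from 48.9% ± 16.2 to 16.7% ± 8.44 (SD, n = 3 each). A call needed an adjusted p under 0.05 from limma on log2 ratios of methylated to unmethylated reads, adjusted over 112778 autosomal bins, and a difference of at least 20 points. The Peg10/Sgce log2 ratio fell by 2.32 ± 0.63 (SE; limma adjusted p = 0.00138). Without the high S/L p10 library of J-34 the difference was -23.1 points instead of -32.3 and the bin was still called (limma adjusted p = 0.0185). Mest went from 41.3% ± 1.11 to 23.3% ± 3.63 (n = 3 each, SD; adjusted p = 0.0380 in limma), a difference of -18.0 points that stayed under the 20 required. Nap1l5 went from 43.7% ± 9.03 to 22.5% ± 5.86 (SD, n = 3 each), a difference of -21.2 points with a limma adjusted p of 0.131. Among all bins 67.4% were called lower, as were 93.7% of bins whose S/L p10 level was at least 20%, so 1 of 3 is no more than the background. The exact two-sided permutation test over whole windows gave p = 0.1 for each, the smallest that 3 libraries against 3 allow.

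At p20 all 3 bins were called lower. In S/L p20 the Peg10/Sgce bin was at 29.9% in J-34, 40.5% in J-35 and 38.3% in J-37, and in 2i/L p20 at 18.8%, 1.86% and 2.78%. For the Mest bin S/L p20 had 50.0%, 38.2% and 31.7%, and 2i/L p20 had 11.8%, 2.25% and 2.02%. For the Nap1l5 bin S/L p20 had 50.4%, 45.5% and 47.3%, and 2i/L p20 had 15.2%, 3.77% and 0%. J-35 and J-37 thus kept almost no methylated reads in 2i/L, while J-34 kept more in each bin. The 0% of Nap1l5 in J-37 is 0 of 219 reads, which allows a level of up to 1.37%, or up to 6.82% if only the 44 reads of the best covered CpG are counted.

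Peg10/Sgce went from 36.2% ± 5.60 to 7.80% ± 9.50 (SD, n = 3 each), and its log2 ratio fell by 3.26 ± 0.63 (SE; adjusted p = 3.49e-05 in limma). Mest went from 39.97% ± 9.26 to 5.36% ± 5.59 (n = 3 each, SD; adjusted p = 7.26e-07 in limma). Nap1l5 showed the largest difference of the 3, from 47.7% ± 2.47 to 6.32% ± 7.91 (n = 3 each, SD; adjusted p = 1.21e-05 in limma). The groups did not overlap in any of the 3 bins, and each call held with any 1 of the 6 libraries left out. Among all bins 64.2% were called lower, as were 93.1% of those with at least 20% in S/L p20. The median bin of that class changed by -46.5 points, so the 3 regions, at -28.4, -34.6 and -41.4 points, shared in a loss found in most of the methylated genome.

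Fewer reads reached the rest of the Mest window, but 2 more of its bins could be compared at p20 and later, with only the compared groups fitted. The bin from 30685001 was at 58.1% ± 14.6 in S/L p20, against 27.9% ± 11.8 with 2i/L (n = 3 each, SD), and was called lower (limma adjusted p = 0.0128, fitted on these groups). The bin from 30688001 was at 23.5% ± 14.5 and 7.0% ± 6.11 (SD, n = 3 each), a difference of -16.5 points that was not called. Both lay in the direction of the main Mest bin in this comparison. The bin from 30685001 differed from S/L p20 by -19.7 points at p23 and -18.9 at p30 (limma adjusted p = 0.243 and 0.344). The bin from 30688001 was at 8.76% at p23 and 22.6% at p30, differences of -14.7 and -0.888 points (limma adjusted p = 0.207 and 0.987). At p10 the bin from 30685001 was at 47.7% in both S/L and 2i/L, over the 2 libraries of each with 10 reads.

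Between p10 and p20 in 2i/L no bin was called, against 0.276% of all bins called in either direction. Beside this 0, limma gave 3 of the 3 bins an unadjusted p under 0.05. No difference reached the 20 points of a call, so the quasi-binomial model could call none either. Its adjusted p was 0.305 for Peg10/Sgce, 0.0126 for Mest and 0.0242 for Nap1l5. The differences were -8.86 points for Peg10/Sgce (limma adjusted p = 0.185), -17.9 for Mest (0.0249) and -16.2 for Nap1l5 (0.0848, or 0.0378 with the cell line as a block). Without the J-34 library of 2i/L p20, Mest (-21.2 points, limma adjusted p = 0.00177) and Nap1l5 (-20.6 points, 0.00608) were called lower at p20 than at p10. In S/L the same passages differed by -12.7, -1.29 and 3.99 points, and none of the 3 was called, against 0.114% of all bins. The test of whether the 2i/L effect itself differed between the passages called none of the 3 either (limma adjusted p = 0.794, 0.248 and 0.344, against 0.00443% of all bins called). At an unadjusted p under 0.05 limma counted 0 of 3 bins in S/L and 2 of 3 for the difference between effects. The quasi-binomial model called 0 in both. Only the Nap1l5 difference between effects, at -20.2 points, reached the 20 points that any call needs.

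The return to S/L was followed in the p23 and p30 cultures, which asks whether these marks come back when the inhibitors are withdrawn. At p23 the Peg10/Sgce bin was at 18.9% in J-34, 15.1% in J-35 and 13.8% in J-37. The Mest bin was at 21.7%, 12.6% and 17.4%, and the Nap1l5 bin at 7.78%, 9.25% and 1.89%. Every one of these 9 values lay below all 3 S/L p20 libraries of the same bin. Across autosomes, by contrast, 30.1% to 31.6% of reads were methylated at p23, 27.9% and 29.8% at p30, and 28.6% to 30.2% in S/L p20, so 1 p30 library lay below every S/L library.

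Against 2i/L p20 the p23 cultures stood somewhat higher at 2 of the 3 regions. Peg10/Sgce was at 15.9% ± 2.68 at p23 (SD, n = 3), a difference of 8.14 points from 2i/L p20 (limma adjusted p = 0.0149). Mest was at 17.2% ± 4.51 (SD, n = 3) and differed by 11.9 points (limma adjusted p = 7.95e-04). Both stayed under the 20 points of a call, so 0 of 3 bins were called higher, against 69.2% of all bins. In limma 2 of the 3 bins had an unadjusted p under 0.05. The quasi-binomial model needs the same 20 points, so it could call none here. Its adjusted p was 0.0465 for Peg10/Sgce, 0.00112 for Mest and 0.799 for Nap1l5. Nap1l5 was at 6.31% ± 3.90 (SD, n = 3) and differed by -0.0179 points on the level scale and by 0.85 on the log2 scale (limma adjusted p = 0.367), 2 measures of opposite sign. By line, Nap1l5 at p23 differed from 2i/L p20 by -7.42 points in J-34, 5.48 in J-35 and 1.89 in J-37. For Mest the same differences were 9.85, 10.4 and 15.4 points, higher in each line. For Peg10/Sgce they were 0.182, 13.3 and 10.98 points, so J-34 was at nearly the same level in both. Without the 2i/L p20 library of J-34 the Nap1l5 difference was 4.42 points (limma adjusted p = 0.0220).

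**Figure D2:**
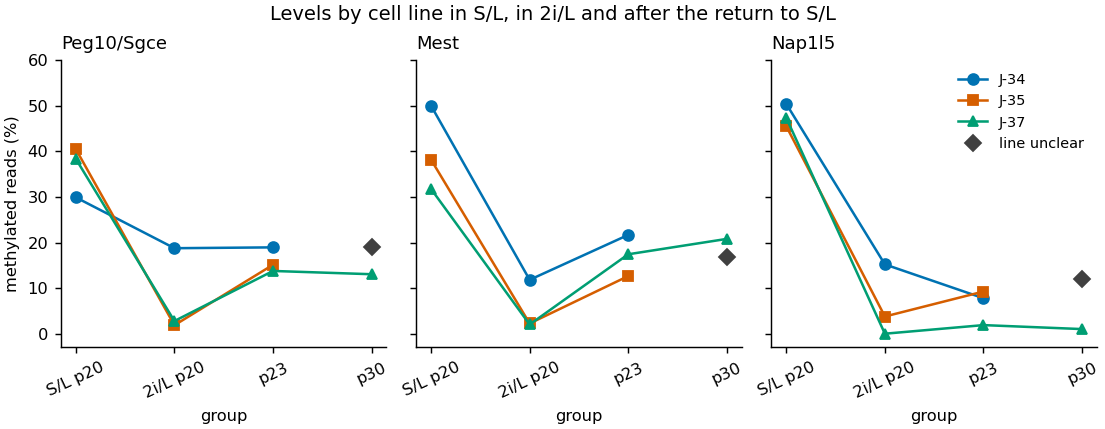
Percent of methylated reads in each region's 1 kb bin for S/L p20, 2i/L p20, p23 and p30, with a line for each ESC line and a diamond for the p30 library of unclear line. All lines drop from S/L to 2i/L; Mest lies 9.85 to 15.4 points higher per line at p23, and Nap1l5 stays at 9.25% or lower at p23.

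Against S/L p20 the p23 cultures were lower in all 3 bins, and 1 was called, Nap1l5. Its difference was -41.4 points (limma adjusted p = 0.0168). The call was lost without S/L p20 of J-34 (limma adjusted p = 0.0539), without S/L p20 of J-37 (0.0518), without p23 of J-37 (0.120) and with a pseudocount of 0.5 (0.0812), while the difference stayed between -42.9 and -39.2 points in all leave-one-out fits. Peg10/Sgce differed by -20.3 points (limma adjusted p = 0.199) and Mest by -22.7 points (0.0901). The 95% intervals of their log2 differences, from -2.85 to -0.28 and from -2.70 to -0.60, lay below 0 before adjustment, so the missed threshold does not show that these levels were alike. With CpGs of 5 reads in all libraries Mest was called lower (-29.6 points, limma adjusted p = 0.0373), while Nap1l5 then had no bin to test. The quasi-binomial model called all 3 lower, and an exact permutation test over whole windows, two-sided, gave 0.1 for each region, the smallest p possible. Of all bins 0.539% were called lower, and 0.782% of those with at least 20% in S/L p20. The p23 libraries and the 2i/L p20 libraries were each compared with S/L p20, so the 2 comparisons share their controls.

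By size alone, 2.96% of the 77779 bins at 20% or more in S/L p20 lay 20 or more points lower at p23, as all 3 regions did. A difference of 40 points or more in that direction, as Nap1l5 showed, was found in 0.168% of them. The median bin of this class stood 1.45 points higher at p23 than in S/L p20. The class was defined on the S/L p20 level, which is also part of the difference, and the regions were named with earlier results of these libraries known.

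At p30, after 10 passages in S/L, the bins of the 3 regions differed from p23 by less than the spread between libraries. The Peg10/Sgce bin was at 18.9% in the library of unclear line and 13.04% in J-37. The Mest bin was at 16.9% and 20.8%, and the Nap1l5 bin at 12.0% and 1.02%. None of the 3 was called between p30 and p23, with differences of 0.0446, 1.61 and 0.187 points (limma adjusted p = 0.988, 0.928 and 0.921), against 0.333% of all bins. In limma 0 of the 3 had an unadjusted p under 0.05, and 0 were called by the quasi-binomial model. The 95% intervals of the log2 differences ran from -1.39 to 1.48 for Peg10/Sgce, from -0.98 to 1.37 for Mest and from -2.28 to 1.59 for Nap1l5, so changes of that size in the ratio could not be told from none. Over the whole Mest window the p30 libraries averaged 26.0% against 18.0% at p23 and did not overlap with them, with p = 0.2 by the exact permutation test, the smallest p for 2 libraries against 3. The p30 libraries covered 34 and 35 CpGs of this window and the p23 libraries 25 to 29. On its CpGs with reads in all libraries the groups overlapped, at 20.3% and 21.3% for p30 and at 23.4%, 16.5% and 17.7% for p23.

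Against S/L p20, 1 of 3 bins was called lower at p30, again Nap1l5 (-41.2 points, a log2 ratio that fell by 4.29; limma adjusted p = 0.00770), against 0.125% of all bins and 0.181% of those with at least 20% in S/L p20. Peg10/Sgce differed by -20.3 points (limma adjusted p = 0.218) and Mest by -21.1 points (0.139). The quasi-binomial model called Nap1l5 and Mest lower, and with CpGs of 5 reads in all libraries limma called Mest lower (-30.4 points, adjusted p = 0.0478). The p30 library of J-37 had the lower Nap1l5 level of the 2, and when it was left out the Nap1l5 difference was -35.8 points and was not called (limma adjusted p = 0.252). The same exact permutation test over whole windows gave p = 0.2, 0.4 and 0.2 for Peg10/Sgce, Mest and Nap1l5, where 0.2 is the smallest p for 2 libraries against 3, and the Mest windows overlapped between the groups. On the Mest CpGs with reads in all libraries they did not overlap, at 20.3% and 21.3% for p30 and 34.2% to 45.1% for S/L p20. With S/L p10 in place of S/L p20, a choice made after the data were seen, the Nap1l5 difference was -37.3 points (limma adjusted p = 0.0610). At p30 0.602% of bins at 20% or more in S/L p20 lay 20 or more points lower and 0.0399% lay 40 or more points lower, while the median bin of this class stood 5.09 points higher.

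**Figure D3:**
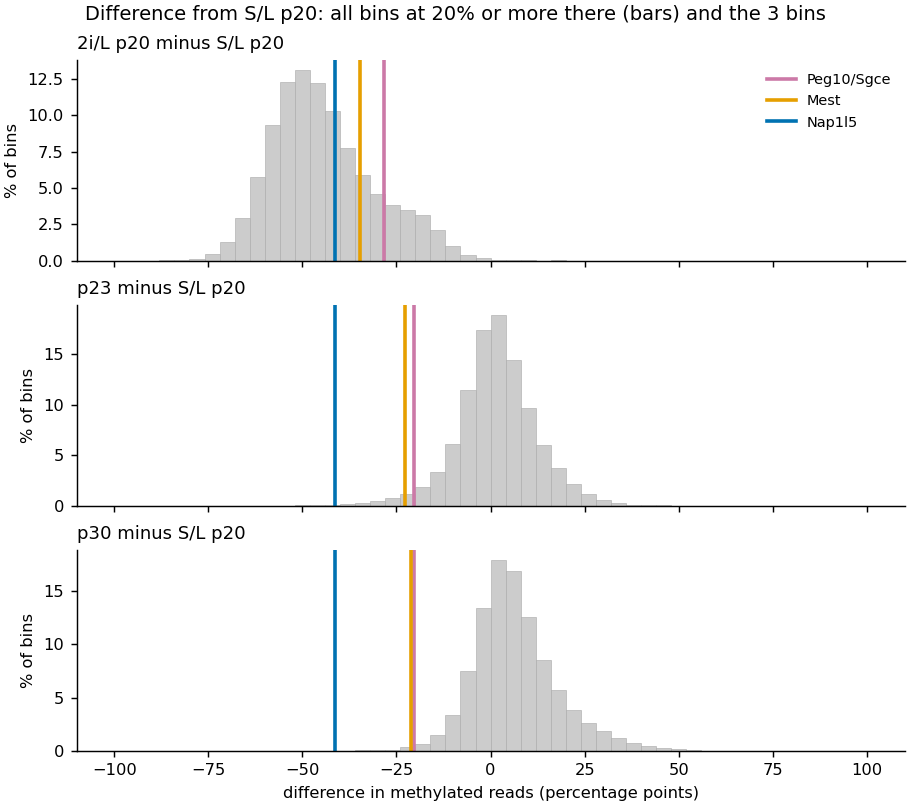
Share of bins (vertical axis, percent of the 77779 autosomal bins at 20% or more in S/L p20) by their difference from S/L p20 in percentage points, for 2i/L p20, p23 and p30, with coloured lines at the 3 regions. In 2i/L p20 the regions lie within the body of the distribution, and at p23 and p30 they lie on its lower side, Nap1l5 at -41.4 and -41.2 points.

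Single CpGs were read with pooled reads of each group, as a description. In the Peg10/Sgce bin 8 CpGs had reads in all 29 libraries, in 2 stretches from 4697355 to 4697372 and from 4697475 to 4697489. In S/L p20 the first stretch was at 33.5% ± 10.1 and the second at 37.4% ± 13.8 (SD, n = 3), and at p23 they were at 11.6% ± 1.15 and 20.4% ± 4.39 (SD, n = 3). Both stretches were therefore below S/L p20. The 4 shared Mest CpGs lay from 30689254 to 30689333, with pooled levels between 36.5% and 40.4% in S/L p20. The same CpGs ran from 2.90% to 9.72% in 2i/L p20 and from 11.1% to 23.3% at p23. In the Nap1l5 bin the 9 shared CpGs lay from 58856628 to 58856871, and the 4 from 58856848 on had the highest S/L p20 levels, 60% to 65%, and 2.70% to 8.11% at p23. Outside the main bin the window of Mest held CpGs at 30683203 and 30685508 with reads in all libraries. At 30683203 S/L p20 was at 16.7% (2 of 12 reads), p23 at 23.8% (5 of 21) and p30 at 33.3% (2 of 6), so the order there was different at few reads. At 30685508 S/L p20 was at 59.1% (13 of 22 reads), 2i/L p20 at 36.6% (15 of 41), p23 at 31.6% (12 of 38) and p30 at 23.1% (3 of 13). There p23 and p30 lay below 2i/L p20, unlike in the main Mest bin. The low p23 level of Nap1l5 was thus seen at each of its 9 CpGs, which ranged up to 8.96%.

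**Figure D4:**
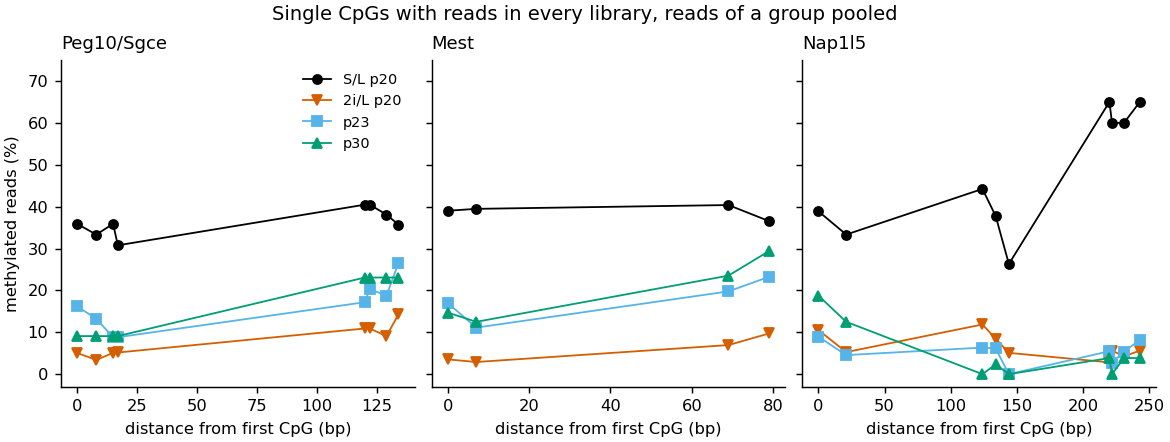
Percent of methylated reads at single CpGs with reads in every library, reads of a group pooled, against the distance in bp from the first such CpG. CpGs of the main bin of each region are drawn, and S/L p20 lies above the other 3 groups at each of them; 2i/L p20, p23 and p30 are ordered differently between the regions.

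In the inhibitor media a2i/L and PKCi/L no region was called, and their p20 means lay between 22.4% and 50.1%. In a2i/L p20 J-34 and J-35 had 38.8% and 31.0% at Peg10/Sgce, 34.2% and 36.6% at Mest, and 39.9% and 32.6% at Nap1l5. The differences from S/L p20 were -1.38, -4.57 and -11.5 points and none was called (limma adjusted p = 0.958, 0.809 and 0.686), against 7.8% of all bins called in either direction. In PKCi/L p20 the same lines had 21.8% and 22.9% at Peg10/Sgce, 50.0% and 37.4% at Mest, and 57.9% and 42.2% at Nap1l5. Here the differences were -13.9, 3.72 and 2.31 points and none was called (limma adjusted p = 0.397, 0.841 and 0.946), against 6.62% of all bins. Nap1l5 in both a2i/L p20 libraries was lower than in each S/L p20 library, and so was Peg10/Sgce in both PKCi/L p20 libraries. By stretch Peg10/Sgce in PKCi/L p20 was at 41.0% ± 4.91 over the first and 11.5% ± 0.517 over the second (SD, n = 2). Between PKCi/L and a2i/L the differences were -12.5, 8.29 and 13.8 points, none called, against 0.0576% of all bins. In all 3 comparisons limma counted 0 bins at an unadjusted p under 0.05. With differences under 20 points the quasi-binomial model could call none, and its adjusted p against S/L p20 was 0.142 or higher. At p10, with 1 library each and no test, a2i/L of J-34 had 33.6%, 50.6% and 41.2% at Peg10/Sgce, Mest and Nap1l5, and PKCi/L of J-35 had 42.2%, 30.8% and 47.9%.

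With PD or CHIR alone for 6 passages J-34 cells had levels whose intervals did not overlap at any of the 3 regions. PD left 4.03% at Peg10/Sgce (5 of 124 reads, Wilson 95% interval 1.73 to 9.09), 9.57% at Mest (9 of 94, 5.12 to 17.2) and 14.5% at Nap1l5 (25 of 172, 10.0 to 20.6). CHIR left 46.2% at Peg10/Sgce (37 of 80 reads, 35.7 to 57.1), 50.0% at Mest (22 of 44, 35.8 to 64.2) and 46.1% at Nap1l5 (53 of 115, 37.3 to 55.2). Each PD level lay below all 3 S/L p10 libraries, while with CHIR Mest lay above all 3 and the other 2 regions lay within their range. The intervals cover counting error only and take reads as independent. Whether duplicate reads were removed was not stated, CpGs share fragments, and 1 library per compound has no replicate check. Across autosomes 13.9% of reads were methylated with PD and 28.9% with CHIR.

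The Mek1/2 double knockout cells, kept in S/L without an inhibitor, held the lowest levels at Peg10/Sgce and Mest of all 29 libraries. No methylated read was found at Peg10/Sgce (0 of 76 reads, which allows up to 3.95%, or 23.1% from the 13 reads of the best covered CpG) or at Mest (0 of 60, up to 5.0%, or 16.7% from 18 reads). Nap1l5 had 1 methylated read of 142, or 0.704% (Wilson 95% interval 0.124 to 3.88), above the J-37 library of 2i/L p20 alone. The outer Mest bins were at 5.0% from 30685001 and at 0% from 30688001. The autosomes of these cells had 9.33% methylated reads, above the 8.81% of 2i/L p20 of J-37. This is 1 library of a clonal line made from fibroblasts, and no induced pluripotent line that keeps Mek1 is among the 15 groups, so genotype, reprogramming and clone cannot be told apart.

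In keratinocytes the 3 regions lay at different levels. Wild-type keratinocytes had 23.6% at Peg10/Sgce (17 of 72 reads, Wilson 95% interval 15.3 to 34.6), 61.9% at Mest (13 of 21, 40.9 to 79.2) and 36.5% at Nap1l5 (23 of 63, 25.7 to 48.9). The 2i/L keratinocytes had 17.9% and 13.8% at Peg10/Sgce, 42.9% and 52.1% at Mest, and 10.5% and 8.99% at Nap1l5. Mest was therefore at an intermediate level in all 3 keratinocyte libraries, while Nap1l5 in the 2i/L keratinocytes, at 9.74% ± 1.06 (SD, n = 2), lay in the range of the p23 and p30 ESC cultures. With 1 wild-type library there was no test, and sex differs between the groups, so sex and origin cannot be told apart. Across autosomes the 3 keratinocyte libraries had 30.7% to 33.6% methylated reads.

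The groups can be ordered by level at each region. At Nap1l5 the order of means from the lowest was DKO (0.704%), p23 (6.31%), 2i/L p20 (6.32%), p30 (6.49%), 2i/L keratinocytes (9.74%), PD (14.5%) and 2i/L p10 (22.5%), followed by the wild-type keratinocytes and the S/L, CHIR, a2i/L and PKCi/L groups between 36.2% and 50.1%. From p23 to the 2i/L keratinocytes the neighbours differed by less than the SD within the ESC groups. At Mest the order was DKO (0%), 2i/L p20 (5.36%), PD (9.57%), p23 (17.2%), p30 (18.9%) and 2i/L p10 (23.3%), and all other groups lay between 30.8% and 61.9%. At Peg10/Sgce the groups from 2i/L keratinocytes (15.9%) over p23 (15.9%) and p30 (16.0%) to 2i/L p10 (16.7%) lay within 1 SD of each other, under PKCi/L p20 (22.4%) and wild-type keratinocytes (23.6%). By stretch these like means differed. The 2i/L keratinocytes were at 35.7% ± 10.1 over the first and 0% over the second (SD, n = 2), with at most 7 reads per CpG. The wild-type keratinocyte library had the same order, at 50% and 12.5%, with at most 8 reads per CpG. The p23 cultures had 11.6% and 20.4%, the opposite order.

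Other places with the most similar pattern over all 29 libraries were sought among 35225 autosomal bins of at least 10 CpGs by the mean absolute difference in level. For Nap1l5 the nearest was chromosome 11 from 11926001 to 11927000, with a mean difference of 5.92 points against a median of 26.1 over the candidates. Its levels were 9.67% in 2i/L p20, 8.25% at p23, 11.3% at p30 and 41.4% in S/L p20. For Peg10/Sgce the nearest 3 all lay on chromosome 2, from 174124001 (6.72 points), from 157387001 (6.84) and from 174125001 (6.98), and the first and last of these also came next after it for Nap1l5 (7.15 and 7.52). For Mest the nearest were chromosome 19 from 11943001 (7.45 points), chromosome 10 from 12810001 (7.61) and chromosome 7 from 67149001 (7.82). The chromosome 19 bin had 5.82% in 2i/L p20, 22.95% at p23, 20.2% at p30 and 30.7% in S/L p20. The chromosome 10 bin had 6.67%, 7.72%, 10.9% and 43.1%, and the chromosome 7 bin 10.2%, 20.9%, 19.0% and 36.1%, in the same order of groups. The nearest bins to Mest thus differed among themselves at p23 and p30. These are descriptions over libraries that share cell lines and media, and genes were not assigned to the bins.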

How the data were processed

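RRBS libraries (NuGen Ovation kit, 12 barcoded reactions pooled per bisulfite conversion, Illumina HiSeq2500) were made from 29 samples, per the labels' protocols. BSMAP 2.89 and build mm9 are named in the submitters' processing notes; read filters and the bisulfite conversion rate were not stated. In the files the authors deposited, each CpG carries its methylated over all reads as text, and a score that equalled 1000 times their ratio, rounded down, in every row. Only the read pairs were used. Depth ran from 8359802 to 22433006 reads per library. From the deposited counts of reads, methylated and all reads were summed per 1 kb bin with Python 3.11.15 (pandas 2.3.3, numpy 2.4.6, scipy 1.17.1); bins needed 10 reads in each library fitted. limma 3.58.1 in R 4.3.3 was fitted to log2((methylated + 1)/(unmethylated + 1)) over 112778 autosomal bins and the 21 libraries of the 8 replicated ESC groups, group as the only factor, two-sided, with Benjamini-Hochberg adjustment; the 11 comparisons and 1 interaction were each adjusted separately. The fit was tested on simulated data. For whole windows, the two-sided exact permutation test was used. Groups with 1 library were given values with Wilson 95% intervals. All 4 genes are named, and the main bin of a window is the one with the most CpGs among those with 10 reads in all 29 libraries. The members and lists were chosen with earlier results of these data known. Same-numbered libraries come from the same ESC line, which pairs them; their deviations from group means correlated by -0.015 to 0.0704 over 18 same-line pairs in 6 comparisons. Nothing says that libraries of a line are separate derivations, so p-values measure the spread between these cultures. Figures were drawn with matplotlib 3.10.9.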

Additional observations from a re-analysis of the deposited data

How the results depend on the processing

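The calls of all 3 regions lower in 2i/L p20 than in S/L p20 held under every alternative run, except that Nap1l5 had no bin to test with CpGs of 5 reads in all libraries. For 2i/L p10 against S/L p10, where 1 region was called, 2 bins were called with no minimum beyond 1 read, with CpGs of 5 reads in all libraries, with the quasi-binomial model and with the compared groups fitted alone, and 3 with bins shifted by 500 bp. For p23 against S/L p20 (1 called) the count was 0 with a pseudocount of 0.5, 3 with the quasi-binomial model, 2 with S/L p10 as the reference and 0 to 1 with single libraries left out. For p30 against S/L p20 (1 called) it was 2 with the quasi-binomial model, 0 with S/L p10 as the reference and 0 to 1 with single libraries left out. With CpGs of 5 reads in all libraries the 1 call of p23 and of p30 against S/L p20 was Mest, and Nap1l5 had no bin. For 2i/L p20 against 2i/L p10 (0 called) leaving out single libraries gave 0 to 2. The cause was not tested. With the cell line as a replicate block, and the p30 library of unclear line left out, the counts of called regions were 1, 3 and 1 for 2i/L p10, 2i/L p20 and p23 against S/L, as without it. For p30 this fit leaves the J-37 library alone, which is assumed to vary like the other groups, and its 1 call, Nap1l5, was lost when J-37 was left out instead. Over all bins p30 against S/L p20 gave 1864 calls in place of 4930 and p30 against p23 gave 58 in place of 376, where leaving out the library without a block gave 2336 and 83. PKCi/L against a2i/L gave 29 in place of 65, and the difference between the 2i/L effects 0 in place of 5.

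Of 777 bin and window differences recomputed, 722 were counted as unchanged. For a bin this meant the same direction and side of the threshold. For a window it meant a move smaller than the larger SD of its groups, whatever the sign where the groups overlapped. A change of sign was counted in 27, each a difference that was not called, and for windows only where the groups had not overlapped. With single libraries left out, the differences of these results ran as follows. For Mest they ran from -6.31 to 2.82 points (S/L p20 against p10), -0.685 to 3.83 (p30 against p23; without p30 of J-37 -0.320), -2.59 to 10.03 (PKCi/L against S/L p20; without S/L p20 of J-37 -0.392) and -8.68 to 0.447 (a2i/L against S/L p20). For Nap1l5 they ran from -5.53 to 10.2 (PKCi/L against S/L p20), -1.21 to 6.84 (S/L p20 against p10), -3.18 to 4.42 (p23 against 2i/L p20, the highest, without 2i/L p20 of J-34, with a limma adjusted p of 0.0220) and -5.29 to 5.67 (p30 against p23). For Peg10/Sgce they ran from -5.36 to 9.81 (the interaction), -5.29 to 2.54 (a2i/L against S/L p20) and -2.89 to 2.98 (p30 against p23). With CpGs of 5 reads in all libraries the sign turned for Mest in S/L p20 against p10 (0.312) and p30 against p23 (-0.720, in bin and window) and for Peg10/Sgce in p30 against p23 (-1.07, also with CpGs of 1 read in all). For p30 against p23 it turned at Nap1l5 (-5.29) and Peg10/Sgce (-2.89) in the fit with the replicate block, as it did with the p30 library of unclear line left out and no block. The alternatives of CpGs with 1 read in all libraries and S/L p10 as the reference were chosen after seeing the data. At the depth of the best covered CpG and a level of 40%, a single library carried a binomial SD of 10.4 to 13.1 points. A difference between libraries carries more, so differences above 10 points can also lie within counting error.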
